A study of Mus musculus with 9 samples.

Results

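Ceacam1 and Ceacam2, neighbouring paralogous genes on mouse chromosome 7, were followed through 4 groups of kidney cortex RNA. They were 2 of the 18657 genes deposited and 2 of the 14437 that could be tested, those whose mean over the libraries was 10 or more. The pair was selected on the measured values, because Ceacam2 differs between the STZ-treated groups. The values of Ceacam2 that involve an STZ group, and the values of both genes between the STZ groups, are therefore given as a description without a test.

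All mice were male littermates on a C57BL/6/FVB mixed background and carried floxed Vhl alleles (Vhl fl/fl). The con group had no Cre, whereas VHLΔPT carried Cre under the Sglt2 (Slc5a2) promoter, which is active in proximal tubule segments S1 and S2. The study reports an incomplete loss of Vhl mRNA within these segments, measured by in situ hybridization. The cortex of these mice thus still holds Vhl in part of these segments and in its other cells. Streptozotocin (STZ), a toxin of the insulin-producing beta cell, was injected i.p. at 100 mg/kg on 2 days at 12 weeks of age in con/STZ and VHLΔPT/STZ. The con and VHLΔPT mice received citrate buffer, and kidneys were taken 10 weeks after STZ. Each library was made from the pooled RNA of 2 mice, with 3 libraries (6 mice) in con and 2 libraries (4 mice) in each of VHLΔPT, con/STZ and VHLΔPT/STZ.

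Carcinoembryonic antigen-related cell adhesion molecules (CEACAMs) are glycoproteins of the immunoglobulin superfamily. In mouse liver, Ceacam1 is phosphorylated by the insulin receptor and takes part in the uptake and clearance of insulin, and its long cytoplasmic tail binds the tyrosine phosphatases SHP-1 and SHP-2. Ceacam2 is a close copy found in rodents, with transcripts in a few tissues that include the kidney, and mice without it have altered energy balance and insulin action.

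Both genes lie on the minus strand of chromosome 7 in GRCm38 with the GENCODE M21 annotation. Ceacam1 (ENSMUSG00000074272) spans 25461707 to 25477603 with 11 annotated transcripts and 5806 merged exon bases. Ceacam2 (ENSMUSG00000054385) spans 25516042 to 25539857 with 4 transcripts and 3788 merged exon bases, and 38438 bases separate the genes. Because the copies are close, the sequence decides how well reads of 50 bases, taken here as single reads, can tell them apart. The longest protein-coding transcripts, Ceacam1-201 (3656 bases) and Ceacam2-203 (3140 bases), were identical at 94.7% of 3059 aligned bases, beside 650 gap positions. The longest exact run in common, of 518 bases, lay after the coding part in both. Of the distinct 50-base windows in all annotated transcripts of each gene, 29.6% of 6044 in Ceacam1 and 46.7% of 3834 in Ceacam2 also occurred in the other gene. In Ceacam1 69.6% of the windows, and in Ceacam2 53.0%, occurred in no other annotated transcript.

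The coding parts were less alike. Among 640 aligned coding windows of 50 bases without a gap, 3.0% had no mismatch, 84.8% had 3 or more, and the median was 9. The window with the most mismatches that also had 25 gapless bases on either side is shown because it is what a read in a separating stretch looks like, with the 21 mismatched bases in capitals. It lies in exon 5 of 8 of Ceacam1-201 (chr7:25471909-25471958, minus strand) and in exon 3 of 7 of Ceacam2-203 (chr7:25527852-25527901, minus strand), both GRCm38 and coding.
Ceacam1: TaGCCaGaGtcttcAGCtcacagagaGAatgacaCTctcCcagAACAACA
Ceacam2: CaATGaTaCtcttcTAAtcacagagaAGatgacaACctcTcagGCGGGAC

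The start regions are shown so that those of both copies can be set side by side. Both windows come from RefSeq (GRCm38.p6, minus strand) and run from 250 bases before to 50 after the gene start, at chr7:25477576-25477875 for Ceacam1 and chr7:25539955-25540254 for Ceacam2. The start used for Ceacam2 lies 147 bases upstream of the GENCODE start and that of Ceacam1 22 bases upstream, so the windows are offset against each other. Where they could be aligned, 88.8% of 143 bases were identical. The capitals mark the palindrome TTCTAGAA, which was picked after the sequences were seen.
Ceacam1: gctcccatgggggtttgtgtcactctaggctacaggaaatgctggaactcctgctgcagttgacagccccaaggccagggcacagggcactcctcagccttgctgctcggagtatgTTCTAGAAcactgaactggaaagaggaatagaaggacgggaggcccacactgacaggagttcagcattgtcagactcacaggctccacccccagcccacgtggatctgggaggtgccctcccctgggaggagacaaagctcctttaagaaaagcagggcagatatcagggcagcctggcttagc
Ceacam2: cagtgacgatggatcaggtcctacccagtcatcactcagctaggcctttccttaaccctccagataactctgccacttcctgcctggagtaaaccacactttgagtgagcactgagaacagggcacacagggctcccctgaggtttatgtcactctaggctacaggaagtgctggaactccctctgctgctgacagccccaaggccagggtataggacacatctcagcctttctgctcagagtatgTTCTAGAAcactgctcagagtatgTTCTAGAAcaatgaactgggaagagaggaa

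Ceacam1 held TTCTAGAA 1 time, and Ceacam2 held it 2 times. On both strands, 1.1% of all 32851 RefSeq windows of this length held it. The E box CACGTG, which contains the hypoxia response core ACGTG on each strand, occurred 1 time in Ceacam1 and 0 times in Ceacam2 (7.15% of all windows). Apart from that site, ACGTG occurred in neither window (19.6% of all windows hold it), and GCGTG (32.4%) and TATAAA (13.6%) were in neither. These matches describe letters in the windows and were not tested as binding sites.

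The values are gene counts that the authors quantile normalized, given here as normalized counts. Totals were nearly equal in all 9 libraries, at 21951722 to 21952234, so the depth of each library is unknown and no counting interval can be given. Vhl itself, the targeted gene, ranged from 522 to 555 in con and from 434 to 469.8 in VHLΔPT (log2 change -0.24, standard error 0.094, limma adjusted p = 0.145). It ranged from 501.3 to 527.1 in con/STZ and from 516.0 to 516.5 in VHLΔPT/STZ, so it was not lower between the STZ groups in this bulk RNA. The proximal tubule markers of segments S1 and S2 were present in every library, with summed normalized counts of 215100 to 298000 over 6 of 6 markers. The library con/STZ 2 stood apart, with 3205 normalized counts of the female transcript Xist against 0 to 6.22 in the other 8 libraries, although all mice were stated to be male. It also had the lowest values of the Y-linked genes Kdm5d, Eif2s3y and Uty (208, 497 and 298, against 459, 1211 and 586 in con/STZ 1). Y-linked Ddx3y had 498 in con/STZ 2 and 1005 in con/STZ 1, and was lowest in con 3 (479.5). The sex of the pooled mice was not tested further. Nothing states how the 2 mice of each pool differ, so errors here are spreads between pools.

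Ceacam1 passed no test between the groups. Its normalized counts were 432, 502 and 368 in con and 451 and 469.8 in VHLΔPT. They were 481 and 632 in con/STZ, and 483 and 524 in VHLΔPT/STZ. Every group overlapped with con, while con/STZ 2 and VHLΔPT/STZ 2 lay above all 3 con libraries. Both VHLΔPT/STZ libraries lay above both VHLΔPT libraries. Means were 434 ± 67.0 (SD, n = 3) for con, 460.4 ± 13.3 (SD, n = 2) for VHLΔPT, 556 ± 106.7 (SD, n = 2) for con/STZ and 504 ± 28.9 (SD, n = 2) for VHLΔPT/STZ, and the highest library was 1.72-fold above the lowest.

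Ceacam2 covered a far wider range. Its normalized counts were 272, 397 and 317 in con, and 131 and 129 in VHLΔPT. In con/STZ they were 9.33 and 30.2, and in VHLΔPT/STZ they were 213 and 349. The con/STZ libraries were the lowest of all 9, the VHLΔPT libraries came next, and the VHLΔPT/STZ libraries overlapped with con. Means were 329 ± 63.1 (SD, n = 3) for con, 129.9 ± 1.02 (SD, n = 2) for VHLΔPT, 19.8 ± 14.8 (SD, n = 2) for con/STZ and 281 ± 96.3 (SD, n = 2) for VHLΔPT/STZ. The mean was therefore 6.02% of con in con/STZ, 39.5% in VHLΔPT and 85.4% in VHLΔPT/STZ.

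**Figure D1:**
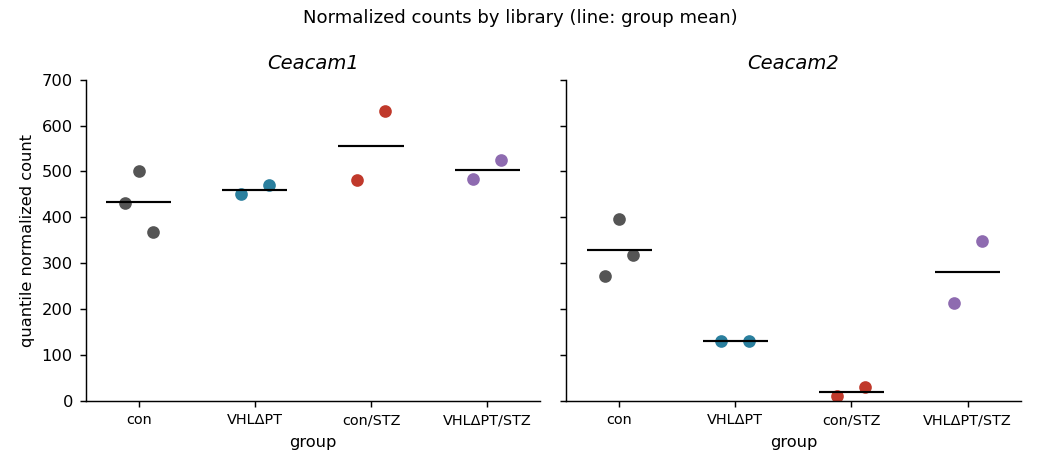
Quantile normalized counts (vertical axis) of Ceacam1 on the left and Ceacam2 on the right in the 4 groups (horizontal axis). Each point is 1 library of 2 pooled mice and each line a group mean. Ceacam1 stays between 368 and 632, whereas Ceacam2 lies at 9.33 and 30.2 in con/STZ and at 213 and 349 in VHLΔPT/STZ.

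Between libraries, Ceacam2 differed 42.5-fold from lowest to highest. On the log2 scale its range was 5.27, rank 61 of the 14437 genes tested, beside a range of 0.78 for Ceacam1 and a median of 0.75 over all genes. The order of the Ceacam2 levels was con, VHLΔPT/STZ, VHLΔPT and con/STZ. The first and second of these overlapped, while VHLΔPT/STZ and VHLΔPT, and VHLΔPT and con/STZ, did not. Its libraries also varied more within a group, with a pooled SD of 0.58 (log2) against 0.19 for Ceacam1 and a median of 0.18 over all genes, and 7.04% of the genes varied more than Ceacam2. Within con/STZ the second library was 3.24-fold above the first, and within VHLΔPT/STZ 1.64-fold.

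Vhl deletion alone was compared between con and VHLΔPT, which are not the groups of the contrast that selected the pair, although the STZ libraries enter the estimate of the spread in this fit. Ceacam2 was 2.49-fold lower in VHLΔPT than in con, a log2 change of -1.31 with a standard error of 0.42, and both VHLΔPT libraries lay below all 3 con libraries. With limma over all genes the unadjusted p was 0.0124 and the adjusted p was 0.098, so the change did not pass the threshold of 0.05. Fitted on the con and VHLΔPT libraries alone, the standard error was 0.19 and the adjusted p 0.0624 (limma), again above the threshold. In that fit 0 genes had both an adjusted p under 0.05 and a fold over 1.5. Not passing there therefore does not set Ceacam2 apart. In the fit of all libraries, Ceacam2 was rank 52 of 14437 from the most lowered gene. In this comparison 240 genes were called higher (1.66% of those tested) and 40 lower (0.277%), where called means an adjusted p under 0.05 and a fold over 1.5. That number fell to 0 in several alternative fits, among them those without a mean-variance trend and without any 1 of the con 1, con 3, VHLΔPT or con/STZ libraries. Ceacam1 had a log2 change of 0.10 with a standard error of 0.16 (limma adjusted p = 0.73), and without con 3 it was -0.016.

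STZ in mice with intact Vhl gave the lowest Ceacam2 values. The log2 change of Ceacam2 in con/STZ against con was -4.18, that is 18.1-fold lower, rank 6 of 14437 from the most lowered gene. The highest con/STZ library was still 9.0-fold below the lowest con library. Without con/STZ 1 the change was -3.38, and without con/STZ 2 it was -4.98. Over all genes, 1269 were called higher (8.79%) and 992 lower (6.87%) in this comparison. Ceacam1, which was tested here, had a log2 change of 0.36 with a standard error of 0.16 and did not pass (limma adjusted p = 0.123).

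In the Vhl-deleted mice with STZ, Ceacam2 was near con. The log2 change in VHLΔPT/STZ against con was -0.25 for Ceacam2, and 0.10 without the library VHLΔPT/STZ 1. That of Ceacam1 was 0.23 with a standard error of 0.16 (limma adjusted p = 0.406). Here 100 genes were called higher (0.693%) and 46 lower (0.319%). Against VHLΔPT, Ceacam2 had a log2 change of 1.06 in VHLΔPT/STZ, and both STZ libraries lay above both VHLΔPT libraries. Ceacam1 had 0.13 with a standard error of 0.17 in that comparison (limma adjusted p = 0.794), in which 1 gene was called (0.00693%), Azgp1, named here after its value was seen.

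Between the STZ groups, the contrast that selected the pair, Ceacam2 was 15.2-fold higher in VHLΔPT/STZ than in con/STZ. This log2 change of 3.93 was rank 4 by size of 14437, and the lowest VHLΔPT/STZ library was 7.04-fold above the highest con/STZ library. Ceacam1 had a log2 change of -0.13 in the same contrast, with 0.065 without con/STZ 2 and -0.33 without con/STZ 1. Over all genes, 1 was called (0.00693%), again Azgp1. Nothing about the pair is read from that share, since this contrast chose them.

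**Figure D2:**
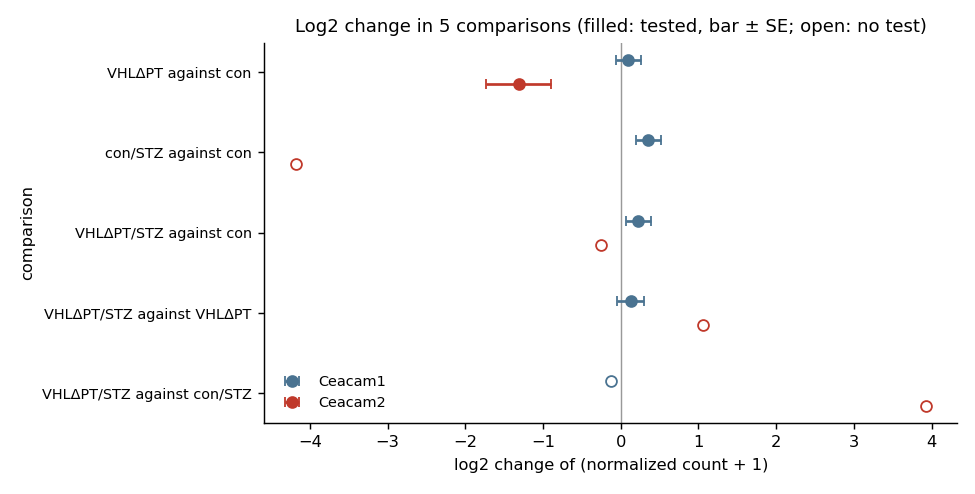
Log2 change of the normalized count plus 1 (horizontal axis) of Ceacam1 in blue and Ceacam2 in red in 5 comparisons (vertical axis). Filled points were tested and carry a bar of 1 standard error, and open points are descriptions without a test. Ceacam2 lies at -4.18 in con/STZ against con and at 3.93 in VHLΔPT/STZ against con/STZ, whereas Ceacam1 stays between -0.13 and 0.36.

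The make-up of the pair changed with the Ceacam2 level. Ceacam2 gave 38.7%, 44.2% and 46.3% of the summed normalized counts of both genes in con. It gave 22.5% and 21.6% in VHLΔPT, 1.90% and 4.57% in con/STZ, and 30.6% and 39.96% in VHLΔPT/STZ. The con/STZ shares were below all others and the VHLΔPT shares lay between them and the rest. Per kilobase of merged exons, the con means were 74.7 ± 11.5 for Ceacam1 and 86.8 ± 16.7 for Ceacam2 (SD, n = 3), whereas in con/STZ they were 95.8 ± 18.4 and 5.22 ± 3.90 (SD, n = 2).

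The con/STZ libraries set a low Ceacam2 beside a Ceacam1 within or above the range of con. With 481 normalized counts of Ceacam1, con/STZ 1 held 9.33 of Ceacam2, which is 1.94% of the Ceacam1 value, and con/STZ 2 held 4.78%. In the con libraries the same ratio was 63.0% to 86.2%. How reads that fit both genes were counted is not given in the sources used here, and the levels of genes that share this much sequence are uncertain where the counting splits such reads. The sum of both genes was 685 to 898 in con, 582 to 599 in VHLΔPT, 490.3 to 662 in con/STZ and 696 to 873 in VHLΔPT/STZ. Over the 9 libraries the log2 values of Ceacam1 and Ceacam2 had a Pearson r of -0.40, given as a description of points that share their group structure.

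**Figure D3:**
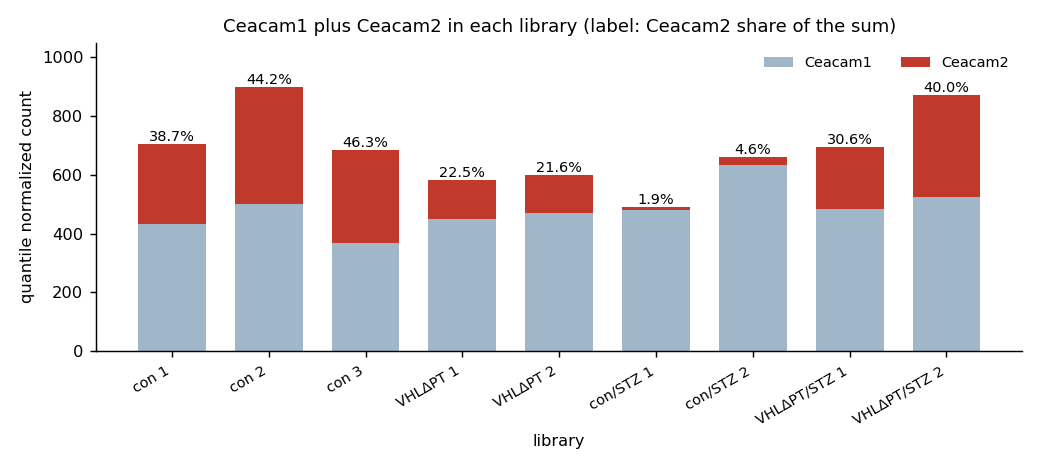
Stacked quantile normalized counts (vertical axis) of Ceacam1 in blue and Ceacam2 in red in each of the 9 libraries (horizontal axis), with the share of Ceacam2 in the sum printed above each bar. The share is 38.7% to 46.3% in con and 1.90% and 4.57% in con/STZ.

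The other rows of the family were near the floor of the table. Ceacam3, Ceacam16, Ceacam19 and Psg16, a pregnancy-specific glycoprotein gene, were the 4 further rows, and none reached the mean of 10 needed for the test. In that order, their highest values in any library were 8.33, 2, 14.1 and 6.22 normalized counts.

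Genes around the pair were examined for a change shared along the chromosome. Toward lower coordinates lie Cnfn (not analysed here), Lipe and Cxcl17 (0 to 5.44 normalized counts), and on the other side Erich4, Dmac2 (listed under its older symbol Atp5sl), B3gnt8 and Bckdha. Lipe, which encodes hormone-sensitive lipase, had 808, 1268 and 913 normalized counts in con and 562 and 580.2 in con/STZ, without overlap. It fell in con/STZ by 0.78 on the log2 scale with a standard error of 0.19 (limma adjusted p = 0.0177). That call was lost without either con/STZ library, with an adjusted p of up to 0.102. Erich4, the nearest protein-coding gene beyond Ceacam2, had 2426, 2337 and 2412 in con and 1385 and 1330 in con/STZ. It fell by 0.82 on the log2 scale with a standard error of 0.094 (limma adjusted p = 0.00218), a call lost with a correction for gene length. Dmac2, of mitochondrial complex I assembly, had a log2 change of -0.37, under the fold threshold (limma adjusted p = 0.0145). B3gnt8, a glycosyltransferase gene, and Bckdha, of branched-chain keto acid oxidation, had -0.33 and -0.16 (limma adjusted p = 0.342 and 0.334). The change of Ceacam2, at -4.18, thus stood beside values between -0.82 and -0.16 in these neighbours.

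The antisense gene 4732471J01Rik runs on the plus strand from 25376819 to 25566417 across both genes, with 0 of its exon bases over exons of either. It had 12.3 to 20.2 normalized counts over the 9 libraries, and a log2 change in con/STZ of -0.11 (limma adjusted p = 0.832). The library kit marks strand, while the strand setting of the counting is not given in the sources used here.

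**Figure D4:**
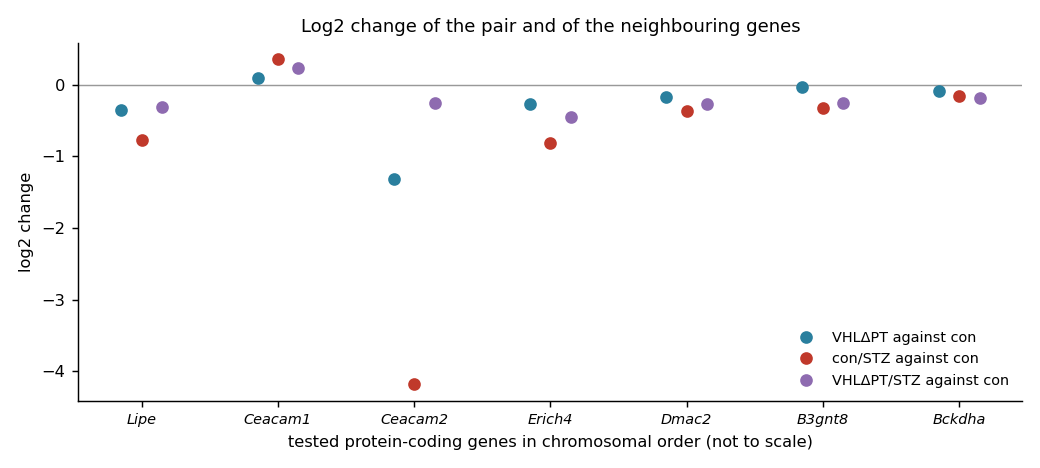
Log2 change against con (vertical axis) of the tested protein-coding genes around the pair, in chromosomal order and not to scale (horizontal axis), in VHLΔPT (blue), con/STZ (red) and VHLΔPT/STZ (purple). Only Ceacam2 leaves the range of -0.82 to 0.36 in the genes shown, with -1.31 in VHLΔPT and -4.18 in con/STZ.

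Partners of the Ceacam1 cytoplasmic tail were examined next. Of the 12 reported here (calmodulins, phosphatases, kinases, adaptors and cytoskeletal proteins), 0 were called in con/STZ by limma, beside 8.79% higher and 6.87% lower over all genes. An unadjusted p under 0.05 (limma) was reached by 4 of them, beside 42.2% of all genes tested. Their median log2 change was -0.013, and that of all genes -0.019. Ptpn6, which encodes SHP-1, had 749, 697 and 736 normalized counts in con and 553 and 652 in con/STZ, with a log2 change of -0.28 (limma adjusted p = 0.0748). Ptpn11, which encodes SHP-2, had 2559, 2468 and 2084 in con and 3249 and 3073 in con/STZ. Its log2 change was 0.42 (limma adjusted p = 0.0181), under the fold threshold.

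Among 9 genes of insulin action, 2 were called higher and 0 lower in con/STZ, beside 8.79% higher and 6.87% lower over all genes. Their median log2 change was 0.34, and that of all genes -0.019. Insr, the insulin receptor, had 1924, 2049 and 1504 normalized counts in con and 3414 and 3210 in con/STZ. It rose by 0.87 with a standard error of 0.13 (limma adjusted p = 0.0037), a call lost with the length correction. Irs1, the insulin receptor substrate, had 243, 226 and 228 in con and 438 and 502 in con/STZ, and rose by 1.01 with a standard error of 0.12 (limma adjusted p = 0.00228). In VHLΔPT/STZ against con, Insr had 0.52 (limma adjusted p = 0.0668) and Irs1 0.32 (limma adjusted p = 0.152). Ide, which degrades insulin, had 1980, 2106 and 1879 in con and 2274 and 1945 in con/STZ, with a log2 change of 0.08 (limma adjusted p = 0.571). Its sign turned with the length correction and without con/STZ 1. Fasn, the fatty acid synthase that Ceacam1 binds in mouse liver, had 2196, 6869 and 2292 in con and 2381 and 2486 in con/STZ. Its log2 change of -0.42 (limma adjusted p = 0.489) became 0.12 without con 2, the library with the high value.

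Of 9 genes described as regulators of CEACAM1 transcription or splicing, 1 was called higher and 0 lower in con/STZ, near the 8.79% higher and 6.87% lower over all genes. Their median log2 change was -0.05, and that of all genes -0.019. The gene called was Ppara, a nuclear receptor of fatty acid oxidation that lowers Ceacam1 transcription in mouse liver. It had 1016, 807 and 444 in con and 1475 and 2147 in con/STZ, and rose by 1.32 with a standard error of 0.38 (limma adjusted p = 0.0333). That call was lost in 6 of 17 alternative fits, among them those without con 2, con 3 or either con/STZ library, with an adjusted p of up to 0.194. In VHLΔPT and in VHLΔPT/STZ against con, 0 of the 30 genes reported from the 3 lists were called, by limma, beside 1.66% higher and 0.277% lower, and 0.693% higher and 0.319% lower, over all genes. At an unadjusted p under 0.05 there were 10 and 6 of them, beside 27.2% and 24.8% of all genes tested.

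Genes that differ between male and female mouse kidney changed in con/STZ, the group with the lowest Ceacam2. Of 9 male-biased genes, 8 were called lower in con/STZ (6.87% of all genes), and of 3 female-biased genes 3 were called higher (8.79% of all genes). In VHLΔPT/STZ against con/STZ the median log2 change was 0.68 for the male-biased and -1.28 for the female-biased genes. Of either list 0 were called in that contrast (0.00693% of all genes). The summed male-biased values were 1006000 to 1035000 in con, 698000 to 1065000 in VHLΔPT, 183800 to 573900 in con/STZ and 230000 to 678500 in VHLΔPT/STZ. Kap, the male-biased gene not called lower, gave most of each of these sums. It had 790000 in every con library, 790000 and 478400 in VHLΔPT, 478400 and 110100 in con/STZ, and 478400 and 137300 in VHLΔPT/STZ. The value 790000 is the highest in the table and, after quantile normalization, the highest of each of the 9 libraries. Kap therefore cannot differ between libraries in which it ranks first. The summed female-biased values were 595 to 1564 in con, 562 to 1423 in VHLΔPT, 18120 to 23290 in con/STZ and 4026 to 18030 in VHLΔPT/STZ. Cyp4a14 gave most of each of the female-biased sums, with 16390 in VHLΔPT/STZ 2. The library VHLΔPT/STZ 2, with the female-biased sum of 18030, had 349 of Ceacam2, within the range of con and more than VHLΔPT/STZ 1. The VHLΔPT libraries, with 131 and 129 of Ceacam2, had female-biased sums of 562 and 1423, near those of con. Xist was above 6.22 in con/STZ 2 alone, and Ceacam2 was lower in con/STZ 1, where Xist was 1.

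Markers of other cell types and segments also differed between con/STZ and con. Those of the S3 segment, 4 of 4 in the table and none at 0, summed to 37690 to 40360 in con, 38440 to 39030 in VHLΔPT, 18270 to 20460 in con/STZ and 20110 to 36910 in VHLΔPT/STZ. In con/STZ 3 of them were called lower (6.87% of all genes), of which Slc7a13 and Cyp7b1 are also on the male-biased list. The S3 glucose transporter gene Slc5a1 was called higher (8.79% of all genes). It had 2319, 1780 and 1977 normalized counts in con and 3189 and 3019 in con/STZ (log2 change 0.62, limma adjusted p = 0.0194).

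In con/STZ 8.79% of all genes were called higher and 6.87% lower, the shares to set beside each count of calls in this paragraph. Of the 4 thick ascending limb markers, 1 was called higher in con/STZ, the transporter gene Slc12a1 (log2 change 1.68, limma adjusted p = 0.000581). Slc12a1 was also called higher against con in VHLΔPT (0.59, limma adjusted p = 0.0474) and in VHLΔPT/STZ (0.86, limma adjusted p = 0.0363). There, 1.66% and 0.693% of all genes were called higher. Cldn10, a tight junction gene of the same list, had a log2 change of -0.42 in con/STZ. The sums of this list were 66550 to 75880 in con, 78310 to 102000 in VHLΔPT, 108500 to 121500 in con/STZ and 77150 to 90320 in VHLΔPT/STZ, none at 0. Of 5 collecting duct markers 2 were called higher in con/STZ, with sums of 17650 to 29800 in con, 20160 to 23870 in VHLΔPT, 49800 to 55280 in con/STZ and 28500 to 48430 in VHLΔPT/STZ. Of 3 distal convoluted tubule markers 2 were called higher, of 4 intercalated cell markers 1 and of 6 S1 and S2 markers 3. Each of these lists also held members that went down. Log2 changes in con/STZ ran from -0.377 (Pvalb) to 1.415 in the first list and from -0.099 to 0.612 in the second. For S1 and S2 they ran from -0.57 (Slc22a6) to 1.258. Of 6 macrophage markers 2 were called lower in con/STZ, with sums of 2996 to 3513 in con, 2771 to 2890 in VHLΔPT, 2098 to 2251 in con/STZ and 2014 to 2669 in VHLΔPT/STZ. Of 4 lymphocyte markers tested 2 were called lower, and the sums over all 7 were 95.9 to 117.8 in con, 60.8 to 85.1 in VHLΔPT, 40.3 to 45.1 in con/STZ and 47.6 to 62.3 in VHLΔPT/STZ, with Ms4a1 at 0 in both con/STZ libraries and in VHLΔPT/STZ 2. Neutrophil markers, 4 of 5 in the table, summed to 20.4 to 352.8 in con, 13.4 to 146.7 in VHLΔPT, 12.1 to 16.3 in con/STZ and 51.6 to 66.6 in VHLΔPT/STZ, with Retnlg at 0 in con 3 and con/STZ 2. The part of the sex-biased genes and of these markers in the Ceacam2 values was not tested beyond these library values. In bulk cortex RNA, fewer cells that hold a transcript and less of it per cell cannot be told apart.

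The genes most like Ceacam2 over the 9 libraries changed far less than it did. Pearson r of the log2 values was computed for 11554 genes with a mean of 50 or more, and is a description of 9 points that share their groups. The 6 highest were Taf11, a subunit of the general transcription factor TFIID (r = 0.949), Smg9 of nonsense-mediated decay (0.932), the centrosomal protein gene Kiz (0.927), Egln1 (0.923), the vesicle coat GTPase gene Sar1a (0.923) and the chaperonin subunit gene Cct8 (0.922). Egln1 encodes the prolyl hydroxylase that marks HIF-α for VHL, and had 2445, 2506 and 2357 normalized counts in con, 1961 and 2162 in con/STZ, and 2304 and 2380.0 in VHLΔPT/STZ. In VHLΔPT, where Ceacam2 was 2.49-fold lower than in con, Egln1 had 2430.0 and 2254, a log2 change of -0.057. In con/STZ against con the log2 changes of these 6 lay between -0.67 for Smg9 and -0.17 for Sar1a. The lowest r were those of the long noncoding RNA Dubr (-0.923), the heparan sulfate sulfotransferase gene Hs3st3b1 (-0.913) and the zinc finger gene Zfp146 (-0.909), with log2 changes of 0.53, 0.38 and 0.36. In all, 17 genes had an r over 0.9.

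**Figure D5:**
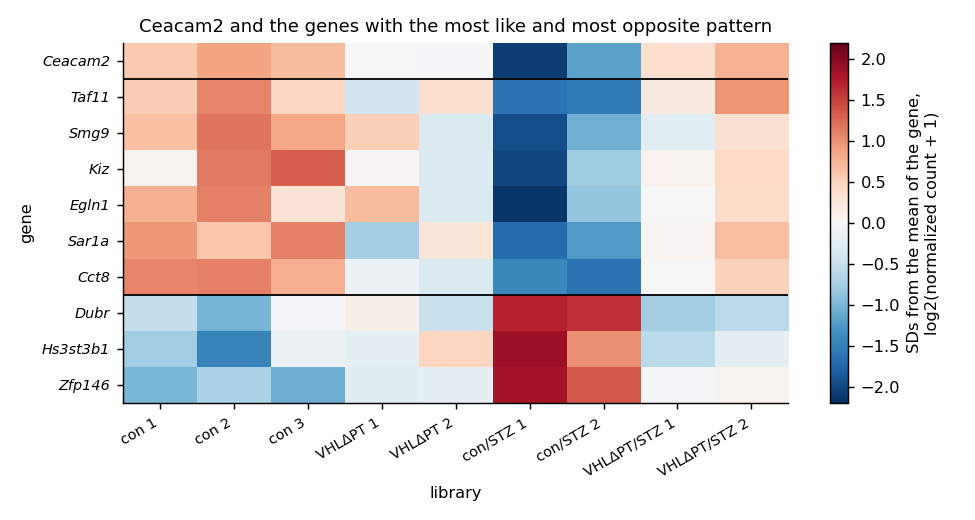
Ceacam2, the 6 genes with the highest and the 3 with the lowest Pearson r to it (rows) in the 9 libraries (columns). Colour gives the distance in SDs of each gene from its own mean on the log2 scale, so it does not show the size of the change, which was -4.18 for Ceacam2 and -0.67 to -0.17 for the 6 like genes in con/STZ against con.

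The same was done for Ceacam1. The highest r were those of the proteoglycan gene Cspg4 (0.954), the chondroitin sulfotransferase gene Chst15 (0.952), Lrch1 (0.932), the caveolar gene Sdpr (0.915), the cell cycle phosphatase gene Cdc25b (0.913) and Cyth3 (0.911), which encodes an exchange factor for ARF GTPases. The lowest were Osgepl1 of mitochondrial tRNA modification (-0.911), Timeless (-0.911) and the mRNA cap methyltransferase gene Rnmt (-0.908). None of these 9 was among the 9 named for Ceacam2. With so few picked for each member from 11554 genes, an overlap was unlikely in any case, and nothing is read from this. Summed endothelial markers, 7 of 7 in the table and none at 0, were 8357 to 8913 in con, 9367 to 10510 in VHLΔPT, 9447 to 9969 in con/STZ and 8527 to 10110 in VHLΔPT/STZ, and their part in the Ceacam1 values was not tested.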

How the data were processed

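The authors pooled cortex RNA of 2 mice per library, made poly(A) libraries with a kit that marks strand and ran 50 bases. The methods call the libraries paired-end but give the run as 1 × 50, which was taken here as single reads. According to the submitters' processing notes and methods, reads were checked with FastQC 0.11 and MultiQC 1.4, trimmed with Trim Galore 0.4, aligned to GRCm38 with STAR 2.5.2b and assigned to genes with featureCounts 1.5.2 and StringTie 1.3.3b. The authors deposited quantile normalized counts, used here as a signal. How and at which step they were quantile normalized, and how reads with several matches were treated, is not given in the sources used here. Normalization of this kind makes all libraries share 1 distribution, so the depth per library is lost. Totals are nearly equal, and 6.39% to 25.6% of the values per library are exactly whole, with no tolerance. The authors' fold changes and p-values, made with DESeq2 1.26.0 in R 3.6.3, are in the same table and were not used.

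Groups came from the sample titles. After a filter at a mean of 10, which left 14437 genes, limma 3.58.1 (R 4.3.3) was run on log2(value + 1). The model had 4 group means over all 9 libraries, 5 residual degrees of freedom and a trend of the variance on the mean. Tests were two-sided, with Benjamini-Hochberg adjustment over the genes tested. Calls needed both 0.05 for the adjusted p and 1.5 for the fold. The study gives the same numbers for its p-values and folds, without stating that its p was adjusted. Folds are on the log2(value + 1) scale, which understates the change of low genes. The fit was also run on simulated log2 values with a normal spread and known changes, which covered neither the quantile normalization nor the read counting. An exact permutation test of these group sizes cannot reach 0.05 and was not used. Gene models and transcripts were from GENCODE M21 and start regions from RefSeq, which matched both genes. Windows were compared by exact match on both strands and alignments were made with Biopython 1.88 in Python 3.11.15. Identifiers gave back 24 gene names that had been stored as dates.

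The members, gene lists and marker lists were chosen with earlier results of these data known. Named genes were both members, 5 genes of the pathway lists and those called there, the 6 highest and 3 lowest in Pearson r for each member, up to 4 protein-coding genes on either side, and sex-biased genes. Some genes that this rule covers are not reported here. As alternatives, the pseudocount was set to 10, the filter dropped or raised to 50, and the fit repeated with median-ratio rescaling, no trend, only the groups compared, a replicate block, a length correction and leaving out each library.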

Additional observations from a re-analysis of the deposited data

Results flagged for a closer look

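The STZ effect on Ceacam2 had opposite signs in the 2 genotypes. In con the log2 change with STZ was -4.18, with both con/STZ libraries below all 3 con libraries, and in VHLΔPT it was 1.06, with both VHLΔPT/STZ libraries above both VHLΔPT libraries. The gap between these log2 changes was 5.24. The difference was not tested, because the STZ libraries selected the gene. No group was large enough for a search for outlying libraries.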

How the results depend on the processing

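No tested member passed the threshold in the reported fit or in any alternative that left no group with a lone library. In those alternatives the adjusted p of Ceacam2 in VHLΔPT against con lay between 0.0624 and 0.197 (limma). That of Ceacam1 in con/STZ against con lay between 0.0701 and 0.2785 (limma). In several of them, such as those without a trend or on only the groups compared, 0 genes were called in VHLΔPT against con. Not passing there does not set Ceacam2 apart from other genes. With a pseudocount of 10, Ceacam2 had a log2 change of -3.59 in con/STZ against con and 3.34 in VHLΔPT/STZ against con/STZ. Leaving out each library in turn gave -4.98 to -3.38 and 3.13 to 4.73 for these, -0.33 to 0.065 for Ceacam1 in VHLΔPT/STZ against con/STZ, and -0.016 to 0.21 for Ceacam1 in VHLΔPT against con. These fits assume that a group left with a lone library has the spread of the rest. In con/STZ against con, Ide turned to -0.11 with the length correction, and leaving out each library gave -0.031 to 0.19 for Ide and -0.71 to 0.12 for Fasn.

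Replicate numbers were not treated as a pairing. The deviations of same-numbered libraries from their group means correlated above 0.1 in 4 of 12 cases (range -0.109 to 0.273). In groups of 2 libraries these deviations mirror each other, so some of the 12 values repeat by construction. With the number as a replicate block, Ceacam1 in VHLΔPT against con was -0.016 and Ceacam2 -1.33 (limma adjusted p = 0.956 and 0.136), and the genes called in that comparison went from 280 to 0.

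Over all alternatives the genes called went from 280 to between 0 and 464 in VHLΔPT against con, from 2261 to between 1067 and 4082 in con/STZ against con, from 146 to between 1 and 421 in VHLΔPT/STZ against con, from 1 to between 0 and 211 against VHLΔPT, and from 1 to between 0 and 3 against con/STZ. The cause was not tested. Unknown depth limits what can be said of values as low as 9.33.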
